A study of Mus musculus with 16 samples.

Results

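The 41 interferon response genes described here were taken as a named set: 29 genes induced mainly by type I interferons (Isg15, the Ifit, Oas and Mx families, the RNA sensors Ifih1, Ddx58 and Dhx58, and others) and 12 genes induced most strongly by interferon gamma (the guanylate-binding proteins, the immunity-related GTPases, Irf1, Irf8, Cxcl9, Cxcl10). They were measured in gastrocnemius, a calf muscle, of 16 male FVB/n mice, with 1 Affymetrix array per mouse. A probe set that carried exactly 1 gene symbol was present for 37 of the 41. Of these, 32 genes (24 type I and 8 gamma-type) had a signal above the array's median in at least 8 of the 16 arrays, without regard to group, and were tested among 13601 genes.

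The 8 deletion mice carried Mx1-Cre and floxed alleles of Foxo1, Foxo3 and Foxo4 (Mx1-Cre+;FoxO1,3,4L/L), and their genotype label reads FoxO1,3,4 knockdown. The 8 controls were littermates with the same floxed alleles but no Cre (MxCre-;FoxO1,3,4L/L), labelled wild type. All 16 mice, controls included, received 3 injections of polyinosine:cytidine (pI:pC), a double-stranded RNA mimic that induces interferon, at 4 to 5 weeks of age. From 7 to 8 weeks of age they ate a high-fat diet (58% fat) for 8 weeks, and muscle was taken at 16 weeks of age. The labels call the deletion endothelial directed. The Mx1 promoter that drives the Cre is itself an interferon-induced promoter and is active in many cell types, including blood-forming and liver cells, so a deletion outside the endothelium and an effect of the Cre cannot be told apart from loss of FoxO in endothelial cells. In whole muscle, fewer cells of a type and less RNA per cell also cannot be told apart.

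Interferons are cytokines that put cells into an antiviral state. Type I interferons bind the receptor chains Ifnar1 and Ifnar2, and signals pass through the kinases Jak1 and Tyk2 to Stat2 and Irf9, which act at a promoter element called ISRE. Interferon gamma, made mostly by T cells and natural killer cells, binds Ifngr1 and Ifngr2 and acts through Jak1 and Jak2 on genes with the element called GAS; Irf1, itself a target, then acts on ISRE-like sites. Products of the targets sense viral RNA, block viral translation or budding, attack the vacuoles of intracellular parasites, and attract leukocytes.

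Promoters of 5 members with a large excess in a single mouse, and of 1 with a small excess, are printed here as the 150 bases before the annotated start, 5′ to 3′ on the gene's strand, from RefSeq (GRCm38.p6). Capitals mark matches to an ISRE core, which is GAAA, any 2 bases and GAAA (TTTC, any 2 bases and TTTC on the other strand), and to GAS, TTCNNNGAA, which reads the same on both strands; a run of capitals can hold overlapping ISRE matches. Igtp (chr11:58199406-58199555, plus strand), Irgm1 (chr11:48871421-48871570, minus strand) and Gbp7 (chr3:142530186-142530335, plus strand) stood for the GTPase genes that were high in 1 control mouse. Isg15 (chr4:156200819-156200968, minus strand) and Rsad2 (chr12:26456453-26456602, minus strand) were the members highest over their group in 1 deletion mouse. Ifit1 (chr19:34640739-34640888, plus strand) is shown beside them because it holds 2 ISRE matches and was the highest of its group in both of these mice, but only 1.52-fold and 1.39-fold over the median of the others.
Igtp: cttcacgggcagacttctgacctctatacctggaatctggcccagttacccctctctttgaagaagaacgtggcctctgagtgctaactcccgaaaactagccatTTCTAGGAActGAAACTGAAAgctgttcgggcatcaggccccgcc
Irgm1: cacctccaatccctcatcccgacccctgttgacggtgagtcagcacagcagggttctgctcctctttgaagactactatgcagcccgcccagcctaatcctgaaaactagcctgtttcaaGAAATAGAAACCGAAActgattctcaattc
Gbp7: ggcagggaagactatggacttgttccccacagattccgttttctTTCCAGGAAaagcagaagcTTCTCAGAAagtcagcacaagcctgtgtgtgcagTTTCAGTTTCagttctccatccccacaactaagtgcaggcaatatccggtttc
Isg15: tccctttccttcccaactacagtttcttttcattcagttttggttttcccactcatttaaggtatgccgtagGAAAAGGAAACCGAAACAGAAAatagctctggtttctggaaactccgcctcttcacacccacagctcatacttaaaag
Rsad2: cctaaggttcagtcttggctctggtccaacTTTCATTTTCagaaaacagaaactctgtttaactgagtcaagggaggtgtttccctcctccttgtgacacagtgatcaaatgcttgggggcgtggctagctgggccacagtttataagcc
Ifit1: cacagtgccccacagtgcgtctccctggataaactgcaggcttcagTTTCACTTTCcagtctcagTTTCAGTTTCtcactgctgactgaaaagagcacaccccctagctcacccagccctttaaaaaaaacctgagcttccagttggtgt

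The Igtp sequence holds 1 GAS match and, 34 bases before the start, 1 ISRE match. Gbp7 holds 1 ISRE and 2 GAS matches, Irgm1 holds 2 overlapping ISRE matches, and Isg15 holds 3. Over the full RefSeq window of 300 bases (250 before to 50 after the start), 30 members had a sequence, and 18 of them (60.0%) held an ISRE match, against 3.99% of 27025 genes. A GAS match was in 10 of the 30 (33.3%), against 9.55% of all genes. By class, ISRE was matched in 11 of 20 type I members and 7 of 10 gamma-type members, and GAS in 5 of 20 and 5 of 10. A match is a run of letters and was not tested as a binding site.

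The arrays correlated with each other at 0.958 to 0.982 over all 41345 probe sets. All 10 skeletal muscle markers were measured, with list means of 12.6 to 12.8 on the log2 scale, and 0 of the 10 passed limma's test between the groups (0 at an unadjusted p under 0.05). The targeted genes were not called lower in deletion muscle: Foxo1 was 7.29 ± 0.06 in controls and 7.36 ± 0.36 in deletion mice (SD, n = 8 each; limma adjusted p = 0.804), Foxo3 was 5.38 ± 0.16 and 5.88 ± 0.40 (limma adjusted p = 0.0762), and Foxo4 was 7.42 ± 0.15 and 7.18 ± 0.26 (limma adjusted p = 0.236). The position of these probe sets relative to the floxed exons is not known here, so the genotype rests on the labels. The liver transcript Alb formed a high set of 6 mice (control 2 and 7, deletion 1, 2, 4 and 5). Among all genes, limma called 249 of 13601 (1.83%) between the groups, 208 higher and 41 lower in deletion muscle, and without those 6 mice it called 7.

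For the interferon genes a pair of mice stood apart from the rest, 1 in each group. Control 7 was the highest of the 8 controls for 23 of the 32 members, where it was the highest control for 10.1% of all genes tested. Deletion 4 was the highest of the 8 deletion mice for 13 of the 32, where it was so for 9.79% of all genes. A member at least 1 log2 unit (2-fold) above the median of the other 7 mice of its group was counted 11 times in control 7 (0.471% of all genes) and 5 times in deletion 4 (0.919% of all genes). In the other 14 mice this count was 0 to 2. The differences of all members are therefore also plotted without control 7, and values without these mice are printed where they turn a direction or move a count by over 1.5 times.

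**Figure D1:**
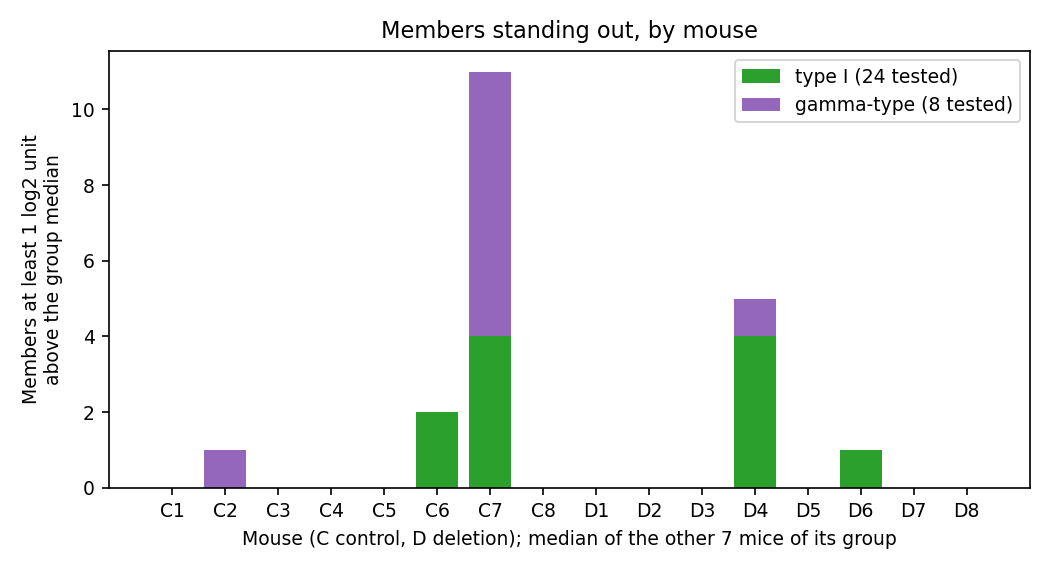
Number of interferon response genes, of 32 tested, at least 1 log2 unit above the median of the other 7 mice of the same group, for each of the 16 mice, with type I and gamma-type genes in separate colours. Control 7 had 11 such genes and deletion 4 had 5, and no other mouse had more than 2.

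In control 7 the gamma-type genes formed the high set, led by the immunity-related GTPases, a family that acts against intracellular parasites in vacuoles. Igtp was 11.33 in control 7 and 5.39 to 6.33 in the other 7 controls, 51.4-fold over their median. Iigp1 was 12.44 against 5.77 to 8.41, 46.7-fold over the median, and Irgm1 was 9.59 against 5.14 to 5.85, 17.0-fold. For these genes the other controls overlapped the deletion mice, and control 7 lay above every one of the other 15 mice. The IRG and guanylate-binding protein families hold close paralogues, so a probe set may read more than its named gene.

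The guanylate-binding proteins, which act on the same vacuoles and on bacteria in the cytosol, followed. Gbp7 was 10.13 in control 7 and 6.35 to 7.59 in the other controls (9.15-fold over their median), and Gbp3 was 6.84 against 4.88 to 5.75 (3.59-fold). The transcription factors moved less in size but lay as clearly apart: Irf8, which directs myeloid cell genes, was 6.77 against 4.54 to 5.36 (2.93-fold), and Irf1 was 6.66 against 5.32 to 5.62 (2.22-fold). Cxcl10, a chemokine that attracts activated T cells, was the 1 gamma-type member that did not share the pattern; its highest control was control 1 at 4.96, and control 7 lay 1.17-fold over the median of the others. Control 7 was thus the highest control for 7 of 8 gamma-type members, and the median excess of the 8 over the other controls was 2.52, where that median lay between -0.29 and 0.30 for each of the other controls.

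The type I genes of control 7 split. The genes for the ISRE-binding complex were high: Stat2 was 7.34 against 4.99 to 5.76 in the other controls (3.54-fold over their median), and Irf9 was 7.47 against 5.67 to 6.14 (2.82-fold). So were Parp14, an ADP-ribosyltransferase (8.47 against 6.33 to 6.70, 3.93-fold), its relative Parp9 (6.88 against 5.74 to 6.04, 1.92-fold), and Rtp4, a Golgi chaperone of receptors (7.69 against 5.85 to 6.39, 2.85-fold). The RNA sensor Ifih1, which is MDA5, was 7.29 against 6.38 to 6.65 (1.79-fold). Several antiviral effectors did not share the pattern. Isg15, a ubiquitin-like modifier, was 5.01 in control 7 and 4.46 to 5.88 in the others, Ifit3 lay 1.04-fold over their median, Oas2 and Oas3 lay at 0.94-fold and 0.98-fold of it, and Ifitm3 lay 1.07-fold over it. Control 7 was the highest control for 16 of the 24 type I members, where it was so for 10.1% of all genes tested. The median excess over the 24 type I members was 0.50, where that median lay between -0.10 and 0.11 for each of the other controls.

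**Figure D2:**
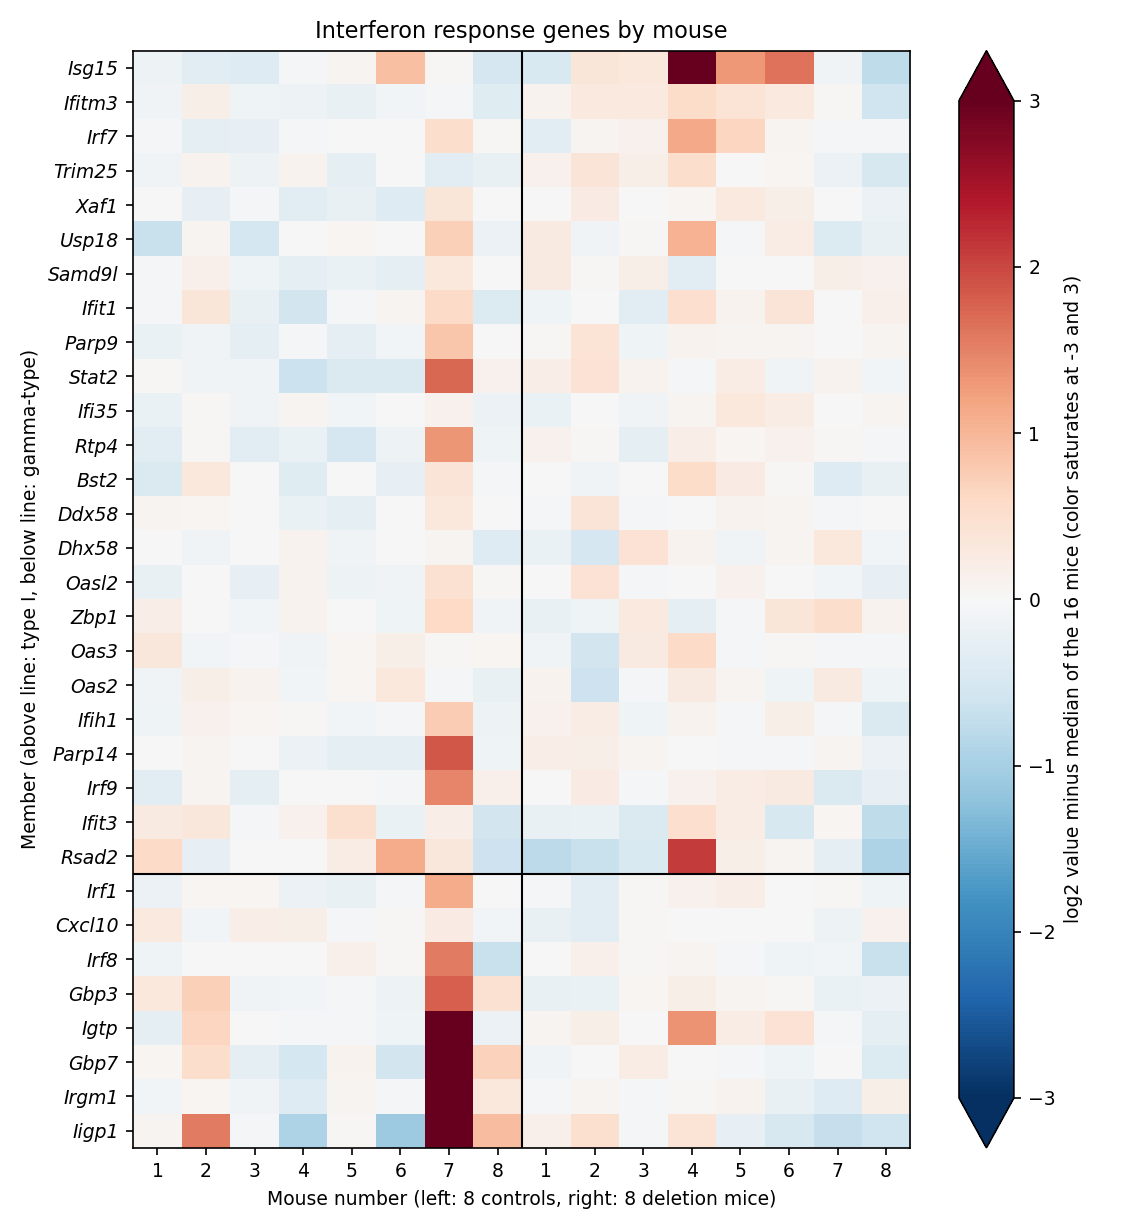
Each of the 32 tested interferon response genes (rows) in each of the 16 mice (columns), as the log2 difference from the gene's median over the mice, with colour saturating at -3 and 3 and with type I genes above and gamma-type genes below the line. The column of control 7 is high for the gamma-type GTPases and Irf genes and for Stat2, Irf9, Rtp4 and Parp14, and the column of deletion 4 is high for Isg15 and Rsad2.

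Over all 13601 genes, 23 (0.169%) lay at least 1 log2 unit above the highest of the other 15 mice in control 7, and 10 of these 23 were members. A further 7 belonged to lists of interferon genes outside the members: the GTPases Irgm2 (10.92 against 5.08 to 6.14 in the other 15 mice), Gbp4 and Gbp10, the peptide transporter subunit Tap1 (7.91 against 5.25 to 6.11), the immunoproteasome subunits Psmb9 and Psmb10, and the antibody receptor Trim21. The other 6 were Gm4841, Cd274, F830016B08Rik, Gm12250, BC023105 and Tnfaip2, which were in none of the lists used here. A gene absent from the lists may still respond to interferon. The 23 genes were spread over 12 chromosomes, with 4 on chromosome 11 and 4 on chromosome 18. Nlrc5, an activator of MHC class I genes, was 5.98 in control 7 and 4.26 to 5.07 in the other controls.

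The interferon genes themselves were higher in control 7 by smaller amounts. Of the 5 tested, 4 were higher there than in all of the other 15 mice: Ifna1 was 6.67 against 6.20 to 6.47 in the other controls, Ifna4 6.42 against 5.38 to 6.05, Ifng 5.08 against 4.57 to 4.99, and Ifnl2 6.82 against 6.41 to 6.63. Their nearest deletion mice reached 6.57, 6.24, 5.06 and 6.79. The mean of the 5 was 6.20 in control 7 and 5.82 to 6.10 in the other controls. The receptor chains of control 7 lay near or below the others: Ifngr1 was 7.88 against 7.98 to 8.09, Ifngr2 8.49 against 8.35 to 8.82, and Ifnar1 7.37 against 7.29 to 7.71. The feedback inhibitor Socs1 was 5.12 against 4.75 to 5.21. Of the lymphocyte and natural killer cell markers, 5 of 12 passed the filter, and their mean was 4.94 in control 7, the highest of the controls, against 4.59 to 4.82. Control 7 was the highest control for Nkg7 (5.30 against 4.79 to 5.25) and Cd4 (4.75 against 4.22 to 4.60). It was not the highest for Cd3e (4.62 against 4.35 to 5.04), Cd2 (4.86 against 4.26 to 5.03) or Cd79a (5.16 against 4.55 to 5.19). Cd3d, Cd3g, Cd8a, Ms4a1, Klrb1c and Ncr1 were under the filter. The mean of the 12 macrophage markers was 6.11 in control 7 and ranked 6 among the 8 controls, and that of the 12 endothelial markers was 7.49 and ranked 4. The part of lymphocytes in the levels of control 7 was not tested. Alb was 11.08 in control 7 and 11.17 in control 2; its part was not tested. Of the other mice high in Alb, control 2 had 1 member at least 1 log2 unit above the median of the other 7 mice of its group. Deletion 4 had 5 such members, and deletion 1, 2 and 5 had 0.

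In deletion 4, 4 of the 5 members at least 1 log2 unit high were type I genes, and the fifth was Igtp, which was high in control 7 too. Isg15 was 8.75 in deletion 4 and 4.21 to 6.60 in the other 7 deletion mice, 10.9-fold over their median, and Rsad2, which is viperin, was 8.84 against 5.81 to 6.92, 5.87-fold. Irf7, which drives interferon alpha genes, was 6.71 against 5.24 to 6.21 (2.09-fold). Usp18, the protease that removes Isg15 from its targets, was 6.40 against 4.95 to 5.63 (2.14-fold). Control 7 was the highest control for Irf7 and Usp18 as well, at 1.48-fold and 1.64-fold over the others' median. Among the gamma-type members Igtp was 7.04 against 5.40 to 6.11 (2.40-fold), far below its level in control 7. Ifit1 lay 1.39-fold over the median and Ifit3 1.67-fold, while Stat2 and Parp14, high in control 7, lay at 0.90-fold and 0.95-fold of it.

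The genes that set deletion 4 apart were mostly outside the interferon lists. At least 1 log2 unit above the other 15 mice were 19 genes (0.14% of those tested), of which 1 was a member (Isg15) and 1 was Isg20, an exonuclease of the further response genes (9.97 against 6.10 to 8.91). Another 2 of the 19 were red cell genes, the anion exchanger Slc4a1 (10.18 against 5.42 to 9.11) and the membrane protein Epb42 (7.37 against 4.20 to 6.25). The mean of 8 red cell markers, a list added after the data were seen, was 8.21 in deletion 4, 6.07 to 7.39 in the other deletion mice and 6.00 to 6.73 in controls; in control 7 it was 6.12. Alb was 11.61 and Foxo1 was 8.23 in deletion 4. The part of red cell precursors in the level of Isg15 was not tested.

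**Figure D3:**
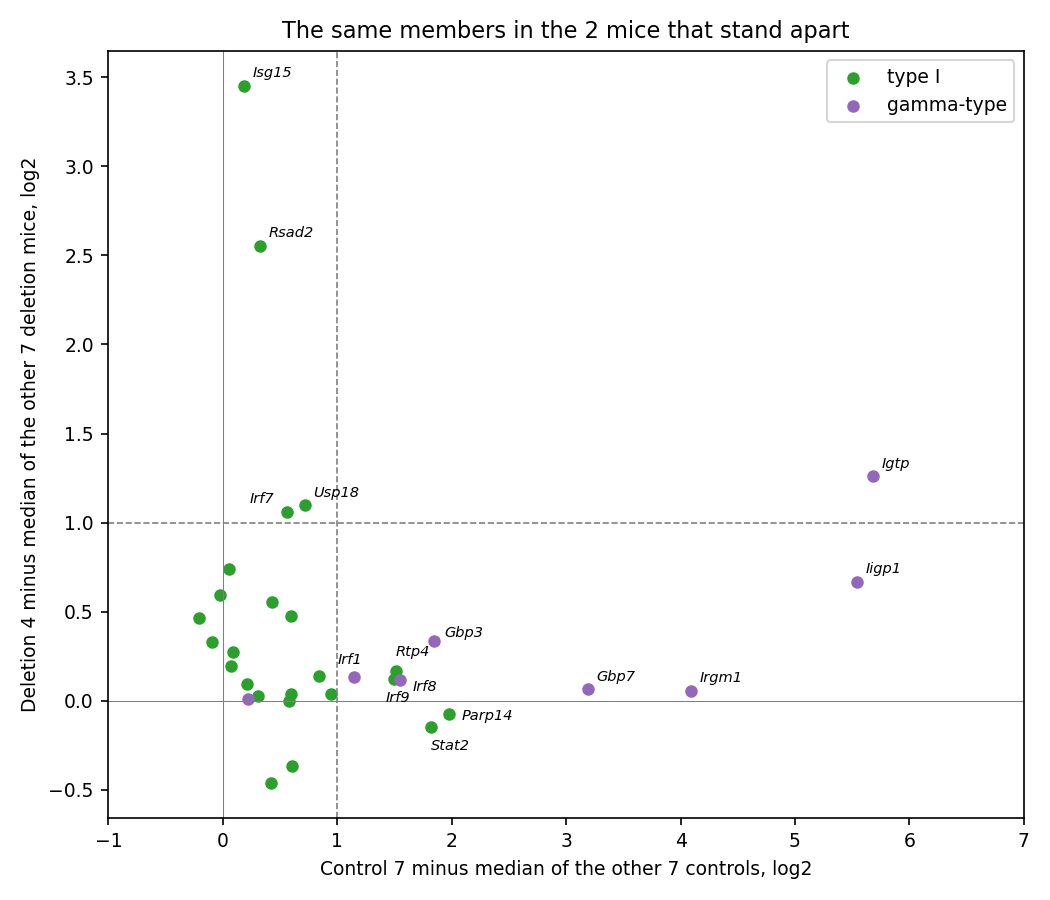
Each point is 1 of the 32 tested members, with the log2 excess of control 7 over the median of the other 7 controls on the horizontal axis and that of deletion 4 over the median of the other 7 deletion mice on the vertical axis; dashed lines mark 1 log2 unit. Igtp is the only member past 1 in both mice.

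Smaller excesses were seen in other mice. Control 6 had the highest Isg15 (5.88) and the highest Rsad2 (7.86) of the controls, the same pair of genes that led in deletion 4, and deletion 6 had the next highest Isg15 of its group (6.60). Control 2 and control 8 were next after control 7 for Iigp1, at 8.41 and 7.79, and for Gbp7, at 7.42 and 7.59. Without control 7 the SD of Igtp over controls went from 2.01 to 0.30 and that of Irgm1 from 1.46 to 0.22, while that of Iigp1 went from 2.13 to 0.94. The median SD of the gamma-type members over controls was 0.95 with control 7 and 0.28 without it, 0.18 in deletion mice, and 0.16 for all genes in controls.

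**Figure D4:**
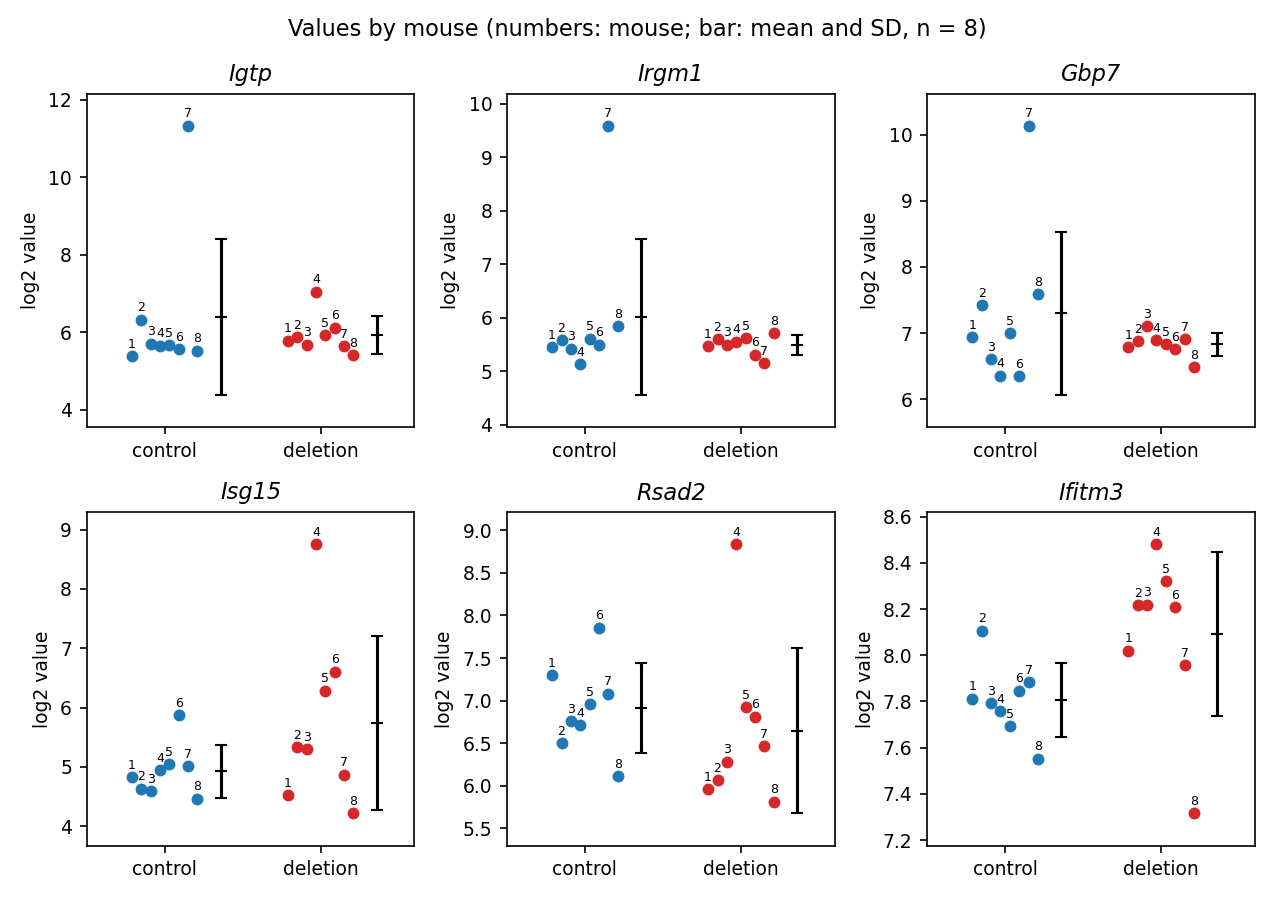
Log2 value of Igtp, Irgm1, Gbp7, Isg15, Rsad2 and Ifitm3 in the 16 mice, 1 numbered point per mouse, with the mean and SD of each group (n = 8) as a bar beside the points. Control 7 lies far above the rest for Igtp, Irgm1 and Gbp7, deletion 4 for Isg15 and Rsad2, and for Ifitm3 5 deletion mice lie above every control while deletion 8 lies below them.

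Between the groups, the interferon response genes were not called different. Deletion muscle was higher for 0 and lower for 0 of the 32 members at an adjusted p under 0.05 (limma, Benjamini-Hochberg over all 13601 genes), where 1.83% of all genes passed (1.53% higher and 0.301% lower). At an unadjusted p under 0.05 limma called 1 of 32, against 17.3% of all genes. Without deletion 4 it had 2, Rsad2 and Ifit3, both with lower means, where 2181 of 13601 genes were past it. Deletion 4 was the highest deletion mouse for both genes, so leaving it out lowers their differences by construction. The groups overlapped for all 32 members; they did not overlap for 0.353% of all genes. The median difference, deletion minus control, was 0.07 over the type I members, with 17 above 0 and 7 below, and 0.0007 over all genes. It was -0.44 over the gamma-type members, all 8 below 0. Without control 7 the gamma-type median was -0.04, with 3 above 0 and 5 below, and the type I median was 0.14, with 20 above 0 and 4 below. Leaving out both control 7 and deletion 4 gave -0.05 and 0.12. These mice were set apart for high values of the members, so leaving them out moves these medians by construction.

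**Figure D5:**
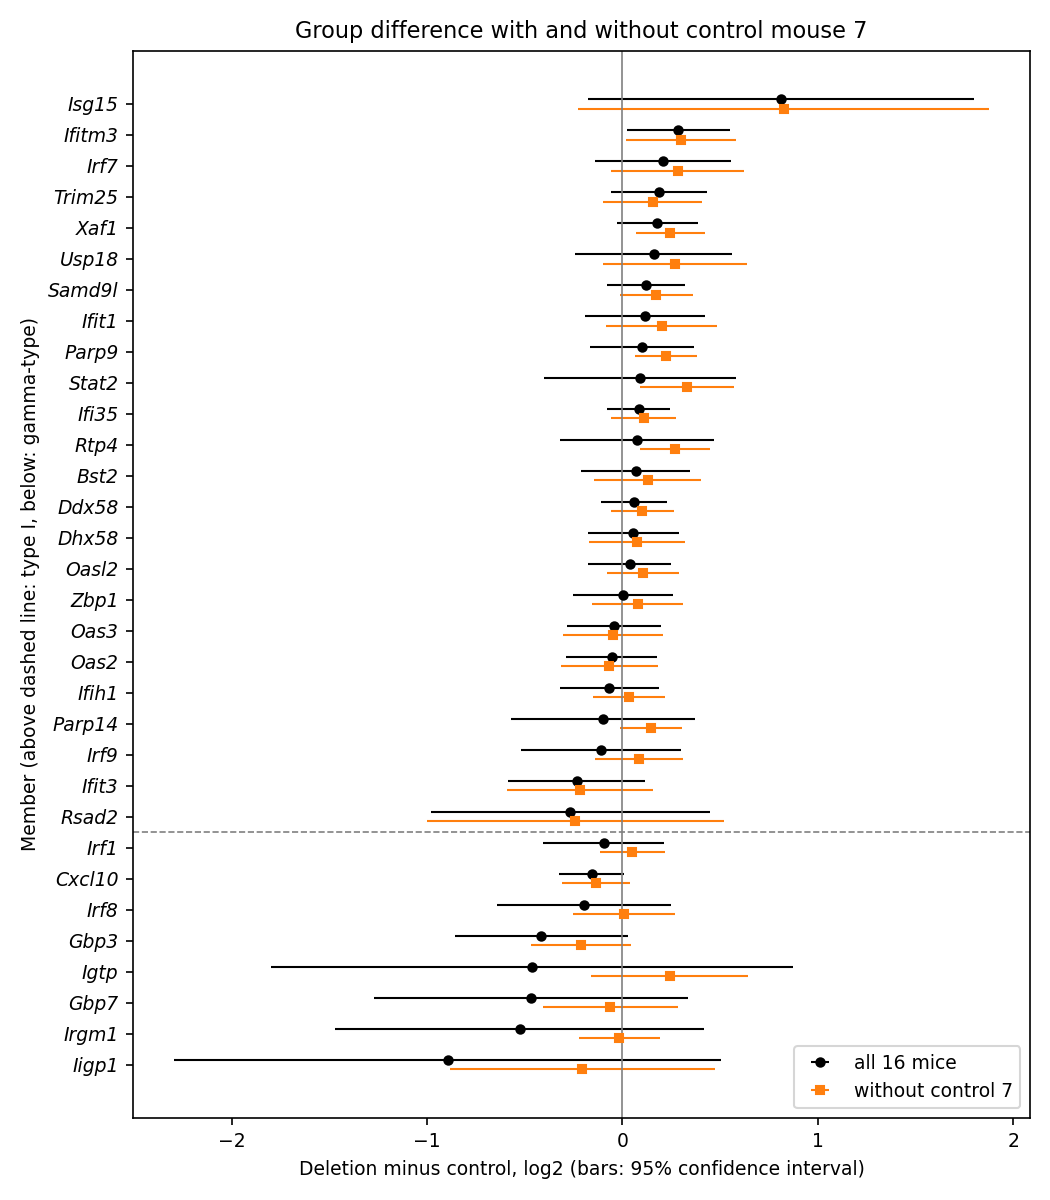
Difference of each of the 32 tested members on the log2 scale, deletion minus control, with its 95% confidence interval from the limma fit, over all 16 mice and without control 7. Without control 7 the gamma-type GTPases have shorter intervals and differences nearer 0, and Ifitm3 is the 1 member whose interval excludes 0 over all 16 mice.

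The member with the smallest p was Ifitm3, a membrane protein that stops viruses from fusing with endosomes. It ranged from 7.55 to 8.11 in controls, with a median of 7.80, and from 7.32 to 8.48 in deletion mice, with a median of 8.21. The 5 highest deletion mice lay above every control, and deletion 8 lay below every control. The difference was 0.29 (SE 0.13, n = 8 and 8; limma unadjusted p = 0.0349, adjusted p = 0.25), and the exact two-sided permutation test over the mice gave p = 0.0558. Without deletion 8 the difference was 0.40 and passed (limma adjusted p = 0.0139), in a fit that called 680 of 13601 genes. Deletion 8 was the lowest of the 16 mice for Ifitm3, so leaving it out raises the difference by construction. This was the only call of a member under any alternative.

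Among the other type I effectors, Isg15 had the largest difference. It was 4.46 to 5.88 in controls (median 4.88) and 4.21 to 8.75 in deletion mice (median 5.32), with 3 deletion mice above every control and 1 below. The difference was 0.81 (SE 0.47; limma adjusted p = 0.384), with a 95% interval from -0.17 to 1.80, and 0.38 without deletion 4. Ifit3, which helps sequester viral RNA, was 5.09 to 6.12 in controls (median 5.80) and 4.89 to 6.15 in deletion mice (median 5.43), a difference of -0.23 (SE 0.17; limma adjusted p = 0.493). The difference of Rsad2, an enzyme that makes a chain-terminating nucleotide, was -0.27 (SE 0.34; limma adjusted p = 0.733) and -0.58 without deletion 4 (limma adjusted p = 0.2). For Ifit1 it was 0.12 (SE 0.15). For the oligoadenylate synthetase genes, which activate RNase L, it was -0.06 (SE 0.11) for Oas2, -0.04 (SE 0.12) for Oas3 and 0.04 (SE 0.10) for the related Oasl2, whose sign turned when arrays were centred. Bst2, or tetherin, which holds budding virions on the cell, differed by 0.07 (SE 0.13), and by -0.0093 without deletion 4. The limma adjusted p-values of Ifit1, Oas2, Oas3, Oasl2 and Bst2 ran from 0.73 to 0.883.

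The remaining type I effectors differed by less than 0.2. Xaf1, a pro-apoptotic factor, was 5.14 to 5.89 in controls (median 5.40) and 5.35 to 5.83 in deletion mice (median 5.57), a difference of 0.18 (SE 0.10; limma adjusted p = 0.351). Trim25, the ubiquitin ligase that acts on RIG-I, was 5.34 to 5.79 (median 5.53) and 5.18 to 6.19 (median 5.76), with 4 deletion mice above every control, and differed by 0.19 (SE 0.12; limma adjusted p = 0.424). Samd9l, an antiviral growth regulator, was 4.59 to 5.19 (median 4.80) and 4.56 to 5.16 (median 4.97), a difference of 0.12 (SE 0.10; limma adjusted p = 0.539). In each of these genes the groups overlapped. Usp18 differed by 0.16 (SE 0.19), Rtp4 by 0.07 (SE 0.19), Parp9 by 0.10 (SE 0.13), Parp14 by -0.10 (SE 0.22; 0.15 without control 7) and Ifi35 by 0.08 (SE 0.08), with limma adjusted p-values from 0.611 to 0.878.

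The sensors of viral nucleic acid and the transcription factors of the type I response did not pass the test between the groups. The RIG-I gene Ddx58 differed by 0.06 (SE 0.08), Ifih1 by -0.07 (SE 0.12), Dhx58, the regulator LGP2, by 0.06 (SE 0.11), and Zbp1, a sensor of Z-form nucleic acid, by 0.003 (SE 0.12); their limma adjusted p-values ran from 0.758 to 0.992. Irf7 was 5.31 to 6.11 in controls (median 5.55) and 5.24 to 6.71 in deletion mice (median 5.65), a difference of 0.21 (SE 0.17; limma adjusted p = 0.553) that was 0.07 without deletion 4. Stat2 differed by 0.09 (SE 0.24; limma adjusted p = 0.883) and Irf9 by -0.11 (SE 0.19; limma adjusted p = 0.821). Without control 7 these differences were 0.33 and 0.08, and that of Ifih1 was 0.03, so Irf9 and Ifih1 turned direction.

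Without control 7, the 5 members with an unadjusted p under 0.05 in limma were all type I genes with higher means in deletion muscle, and 0 of 32 passed after adjustment; for all genes the shares were 16% unadjusted and 0.993% adjusted. Their differences were 0.33 for Stat2 (95% interval 0.09 to 0.57), 0.30 for Ifitm3 (0.02 to 0.58), 0.27 for Rtp4 (0.09 to 0.45), 0.25 for Xaf1 (0.07 to 0.42) and 0.22 for Parp9 (0.07 to 0.38). The limma adjusted p-values without control 7 were 0.169 for Stat2, 0.134 for Rtp4, 0.165 for Xaf1, 0.156 for Parp9 and 0.283 for Ifitm3. Control 7 was set apart for its high members and was the highest control for Stat2, Rtp4, Xaf1 and Parp9. Leaving it out lowers their control means, so part of their shared direction is set by that choice. Without control 7 and deletion 4, limma had 6 members unadjusted, 5 higher and 1 lower, where 2054 of 13601 genes were past it.

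Of the gamma-type genes, Iigp1, Irgm1, Gbp7 and Igtp had the widest intervals. Iigp1 was 5.77 to 12.44 in controls (median 6.92) and 6.17 to 7.33 in deletion mice (median 6.71), a difference of -0.89 (SE 0.67; limma adjusted p = 0.515), with a 95% interval from -2.30 to 0.51. Irgm1 was 5.14 to 9.59 (median 5.54) and 5.15 to 5.71 (median 5.53), a difference of -0.53 (SE 0.45; limma adjusted p = 0.58). Gbp7 was 6.35 to 10.13 (median 6.97) and 6.49 to 7.11 (median 6.85), a difference of -0.47 (SE 0.38; limma adjusted p = 0.56). The difference of Igtp was -0.46 (SE 0.64; limma adjusted p = 0.757). All of the deletion mice lay within the control range for these 4 genes. Without control 7 the differences were -0.21 for Iigp1 (95% interval -0.88 to 0.47), -0.02 for Irgm1 (-0.22 to 0.19), -0.06 for Gbp7 (-0.41 to 0.28) and 0.24 for Igtp (-0.16 to 0.64), the last with its sign turned.

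Gbp3 and Cxcl10 had the smallest p-values of the gamma-type genes. Gbp3 was 4.88 to 6.84 in controls (median 5.17) and 4.81 to 5.21 in deletion mice (median 4.98), with 4 deletion mice below every control, and differed by -0.42 (SE 0.21; limma adjusted p = 0.317), or -0.21 without control 7. Cxcl10 was 4.58 to 4.96 (median 4.77) and 4.33 to 4.80 (median 4.65), with 3 deletion mice below every control, and differed by -0.16 (SE 0.08; limma adjusted p = 0.316), or -0.13 without control 7. Irf8 differed by -0.20 (SE 0.21; limma adjusted p = 0.677) and Irf1 by -0.10 (SE 0.15; limma adjusted p = 0.785); without control 7 they differed by 0.008 and 0.05.

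The other 9 named members were not tested. Oas1a, Ifi44, Gbp2 and Tgtp1 had no probe set with a single symbol. Mx1, the antiviral GTPase gene whose promoter drives the Cre, was above the array median in 0 of 16 arrays, at 2.79 to 3.92 (array medians 4.43 to 4.61), and so was Mx2 at 3.67 to 4.52. Ifit2 was above it in 7 arrays, at 4.00 to 5.03. Gbp6 was at 1.54 to 3.73 and above the median in 0 arrays, with control 7 highest, and Cxcl9 was at 3.71 to 5.65 and above it in 7 arrays, with control 7 again highest. The tested members nearest the limit were Isg15, above the median in 12 of 16 arrays (6 in each group), and Cxcl10, above it in 13 (8 control and 5 deletion).

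The genes upstream of the response were taken as lists. Of 8 receptor and kinase genes tested, 1 was higher in deletion muscle: Il10rb, the receptor chain shared by interferon lambda and interleukin 10, which rose by 0.46 (SE 0.10; limma adjusted p = 0.0237) from 6.75 ± 0.17 in controls to 7.21 ± 0.23 (SD, n = 8 each). It passed in 15 of 16 fits that left out 1 mouse, not without deletion 6, and it did not pass without the 6 mice high in Alb, where the difference was 0.56 (limma adjusted p = 0.209). At an unadjusted p under 0.05 limma had 6 of the 8, with 4 higher and 2 lower means, where 17.3% of all genes were past it. Besides Il10rb these were Ifngr1 (0.23), Ifnar2 (0.30), Tyk2 (0.21), Ifngr2 (-0.21) and Jak2 (-0.27), which did not pass (limma adjusted p = 0.143, 0.146, 0.211, 0.188 and 0.204). The median difference of the 8 was 0.18.

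Of the 5 interferon genes above the filter, limma called 0 (0 at an unadjusted p under 0.05), and the median difference was -0.11. Ifng was 4.86 ± 0.18 in controls and 4.70 ± 0.19 in deletion mice (limma adjusted p = 0.364), and Ifnb1 was at 2.80 to 3.47, above the median in 0 of 16 arrays. Limma called 0 of 12 sensor and adaptor genes (2 at an unadjusted p under 0.05: Ticam1, the adaptor of Tlr3, at -0.18, and the kinase Ikbke at -0.30) with a median difference of 0.15. It called 0 of 11 negative regulators (1 unadjusted: the phosphatase Ptpn6, at 0.32) with a median of -0.0014. Of 40 further response genes it called 0, with 8 at an unadjusted p under 0.05, all 8 with higher means in deletion muscle, and a median of 0.10; over all genes 17.3% were past that unadjusted threshold. Without control 7 it called 0 of the 40 and had 13 unadjusted, all 13 with higher means in deletion muscle, where 16% of all genes were past that threshold. The mean of the 40 was 6.59 in control 7 and 5.93 to 6.17 in the other controls. Leaving control 7 out therefore lowers the control mean of the list by construction, and part of that count is set by the choice. Over all 16 mice, Slfn2, a schlafen family gene, had the smallest p-value of the 40 (0.57, SE 0.17, limma adjusted p = 0.0976). Ifi30, a lysosomal thiol reductase, came next (0.34, SE 0.11, limma adjusted p = 0.108). The Isg20 difference was 1.04 (SE 0.40; limma adjusted p = 0.189), with deletion 4 its highest mouse.

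Markers of cells that can carry an interferon response did differ between the groups. Over all genes limma called 1.83%, and 17.3% had an unadjusted p under 0.05. Limma called 9 of 12 endothelial markers higher and 0 lower, with a median difference of 0.52, among them Erg (0.52), Cdh5 (0.58) and Ptprb (0.73). Without control 7, without deletion 4 and without both, limma called 135, 176 and 93 of 13601 genes. The endothelial count in these fits was 6, 6 and 4, with all 12 differences above 0 in each. The list mean was 7.32 to 7.73 in controls and 7.62 to 8.24 in deletion mice, with 6 deletion mice above every control. Of the macrophage markers 3 of 12 were higher (Mertk, C1qa and Itgam), with list means of 6.02 to 6.71 and 6.28 to 7.59, and of the neutrophil markers 1 of 4, S100a8 (1.28, SE 0.27), with list means of 4.38 to 4.85 and 4.62 to 5.91. Limma called 0 of 5 lymphocyte, 0 of 4 dendritic cell and 0 of 5 liver markers (0, 1 and 0 at an unadjusted p under 0.05; 0 of the dendritic cell markers without either mouse), and 0 of 8 red cell markers (3 unadjusted). The macrophage count was 2 without control 7, without deletion 4 and without both, and the neutrophil count was 1, 1 and 0. Without the 6 mice high in Alb limma called 7 of 13601 genes, and 1652 had an unadjusted p under 0.05. The endothelial count in that fit was 1, with a median difference of 0.33 and all 12 above 0. In that fit the macrophage count was 0 (8 of 12 unadjusted), with a median of 0.54 against 0.46 over all mice, and the neutrophil count was 0 (2 of 4 unadjusted). The dendritic cell list holds Bst2, which is also an interferon response member. The part of the cell markers in the differences of the interferon genes was not tested.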

How the data were processed

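The deposited values are log2 intensities for 41345 probe sets, 1 array per mouse, which the authors made with RMA; the submitters' processing notes also name oligo, with no version or order of steps. Gene symbols came from the platform annotation: 23521 probe sets carried 1 symbol, 1814 several and 16010 none, and 1 symbol was required. A probe set was kept when above its array's median in at least 8 of 16 arrays, and the brightest per gene was used. Deletion was compared with control with limma 3.58.1 (R 4.3.3; lmFit and eBayes, group only, two-sided), with Benjamini-Hochberg adjustment over 13601 genes and a threshold of 0.05. The script was tested on simulated data. A log2 difference of 1 is 2-fold, since no pseudocount was added. The members and all lists were chosen with earlier results of these data known, and the red cell list and the fit without control 7 and deletion 4 were added after seeing the data. Named genes were every member, with ranges for the 12 of smallest p, and in each list those called and up to 2 per direction of smallest p; genes of single mice were named after their values were seen. Same-numbered mice were not paired. Motifs were searched on both strands of RefSeq promoter windows (GRCm38.p6), and members without a window were Oas2, Mx1, Mx2, Dhx58, Usp18, Rtp4, Zbp1, Parp9, Parp14, Gbp6 and Iigp1. Alternatives covered the filter, scaling, probe set choice, variance model, array weights, replicate block, threshold, high-Alb mice and each mouse in turn. The precision of a value is limited by the 8 arrays per group.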

Additional observations from a re-analysis of the deposited data

Results flagged for a closer look

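In each group of 8 mice, the gap between the highest or lowest mouse and its neighbour was divided by the range of the group and set against Dixon's 95% critical value. Of 64 such group checks over the 32 members, 27 had a mouse past it, where chance gives about 1 in 20. Members of 1 mouse share an array, so these are not independent. Control 7 accounted for 15 of the 27 and was the highest control in each: Iigp1 (12.44), Igtp (11.33), Gbp7 (10.13), Irgm1 (9.59), Parp14 (8.47), Rtp4 (7.69), Irf9 (7.47), Stat2 (7.34), Ifih1 (7.29), Parp9 (6.88), Gbp3 (6.84), Irf8 (6.77), Irf1 (6.66), Irf7 (6.11) and Zbp1 (5.54).

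Deletion 4 was past it as the highest deletion mouse for Rsad2 (8.84), Igtp (7.04) and Usp18 (6.40) and as the lowest for Samd9l (4.56). For Isg15, deletion 4 (8.75) was followed by deletion 6 (6.60) and was not past it, while control 6 (5.88) was. Deletion 2 was the highest for Parp9 (6.44) and Ddx58 (6.01) and the lowest for Oas2 (4.57). Deletion 8 was the lowest for Ifitm3 (7.32) and Irf8 (4.55). The remaining low values were Rtp4 in deletion 3 (6.07) and Dhx58 in control 8 (4.37).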

How the results depend on the processing

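Limma called 0 of the 32 members under every alternative but 1, the fit without deletion 8, which called Ifitm3 among 680 of all genes. Of 842 member values under the alternatives, 809 kept direction and side of the threshold, 32 turned direction and 1 gained a call. The 0.10 threshold, the variance model and the replicate block leave each difference unchanged, so no direction could turn there. The changes of filter also returned the same differences for the members. The count of 809 therefore overstates how stable the directions were. In all, 18 members kept their direction throughout. The number of genes called over the whole table was less stable: 249 as reported, 137 with no filter, 505 at an adjusted p under 0.10, 7 without the 6 mice high in Alb, 93 without control 7 and deletion 4, and 107 to 680 when 1 mouse was left out; the fewer mice and the larger number of genes tested are part of the construction of these fits, and other causes were not tested. The share of calls that were higher was 83.5% as reported, 65.3% with arrays centred and 72.4% after quantile normalization.

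The type I median ran from 0.04 to 0.14 and the gamma-type median from -0.54 to -0.04 when 1 mouse was left out. Directions turned with arrays centred for Oasl2 (-0.0144) and Zbp1 (-0.0496); without the mice high in Alb for Parp14 (0.13), Irf1 (0.0735), Gbp7 (0.01) and Igtp (0.12); and without control 7 and deletion 4 for Irf9 (0.0678), Ifih1 (0.0183), Parp14 (0.15), Irf1 (0.0313) and Igtp (0.0832). Leaving out 1 mouse gave ranges across 0 for Zbp1 (-0.0595 to 0.0784), Stat2 (-0.0034 to 0.33), Irf9 (-0.17 to 0.0837), Ifih1 (-0.0984 to 0.0341), Parp14 (-0.16 to 0.15), Irf1 (-0.14 to 0.0511), Irf8 (-0.31 to 0.008), Igtp (-0.62 to 0.24), Oasl2 (-0.0181 to 0.11), Oas2 (-0.0985 to 0.0288), Oas3 (-0.12 to 0.0367), Dhx58 (-0.0039 to 0.13) and Bst2 (-0.0093 to 0.13). Same-numbered mice of the groups correlated at -0.08 to 0.25 and 3 of 8 correlated best with their own number, so the numbers were not taken as pairs; with the replicate block limma called 213 genes and 0 members (3 members unadjusted). Dim probe sets, such as Isg15 and Cxcl10 in some mice, limit what differences could be seen.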

Other observations

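Among genes that the interferon lists did not hold, control 7 was also high for Cd274, which encodes the checkpoint ligand PD-L1 (9.03 against 4.33 to 6.22 in the other 15 mice). The same held for Tnfaip2 (9.38 against 6.63 to 8.06), Gm4841 (12.37 against 5.69 to 8.87), F830016B08Rik (12.68 against 7.98 to 10.07) and BC023105 (10.16 against 6.86 to 8.76). The last 3 are on chromosome 18, as Iigp1 is. Whether interferon induces these genes was not tested. In deletion 4 the highest gene over the other 15 mice was Apol11b (11.75 against 4.05 to 9.17). Other genes high there were Slc7a5, an amino acid transporter subunit (9.43 against 5.50 to 7.90), Ube2c, a ubiquitin-conjugating enzyme of mitosis (9.93 against 5.71 to 8.56), and Gpx1, a glutathione peroxidase (10.97 against 7.23 to 9.62). All were picked by their values in these mice, with no test.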
